A study of Mus musculus with 8 samples.

Results

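The probes described here are those that the array files name by a stretch of genome in place of a transcript accession. A probe was taken when it was no control probe and its systematic name began with chr, which gave 16194 of 55681 non-control probes (29.1%). Their names, such as chr1:73664661-73911040_R, hold a chromosome, a start, an end and a suffix F or R, read here as the forward and the reverse strand, which the file headers do not define. The coordinates are on mouse build mm9 (NCBI37), per the file headers. The 16194 probes carried 4610 names in 3543 regions, with a median of 3 and at most 10 probes to a name. Of the regions, 1067 had probes on both strands, 2473 on 1 strand, and 3 regions with 13 probes had no suffix. The regions lay on 20 chromosomes and had a median width of 7304 bp (62 to 7128487 bp). Many covered the same ground: 2101 regions overlapped another one, and merging them left 2226 separate loci. Probes of 1 name, and probes in overlapping regions, share a target and are no replicates of one another. The comparison class was the 26536 probes whose systematic name is an accession beginning with NM_, which RefSeq gives to curated messenger RNAs.

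Long intergenic noncoding RNAs (lincRNAs) are transcripts that are capped, often spliced and mostly polyadenylated like messenger RNAs, but have no long open reading frame and start between protein-coding genes. As a class they are known for lower expression and narrower tissue patterns than messenger RNAs, and in neural progenitors some take part in proliferation and cell fate. When oxygen falls, cells stabilise hypoxia-inducible factors, which switch on genes of glycolysis, angiogenesis and pH control, and some noncoding transcripts are known to respond with them. The term lincRNA for these probes is that of the array design and stands in none of the files. Whether a region lies outside annotated genes was not checked, because no annotation of build mm9 was used here.

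The cells were neural stem cells from mouse embryos of the OF-1 strain at E13.5. They went straight from isolation into serum-free culture at 5% oxygen (4 arrays) or at 21% oxygen (4 arrays), stayed there for 2 to 3 passages and at least 10 days, and gave total RNA with an integrity number above 7. Each of the 4 experiments used other donors, and arrays with the same replicate number were taken as the low and high oxygen cultures of 1 experiment. The study looked for genes through which sustained low oxygen acts on these cells.

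Non-control spots well above background made up 64.4% to 73.9% of an array, and arrays differed in overall brightness, with a 75th percentile between 1909 and 7352 intensity units. All 11 neural stem and radial glia markers on the array were well above background on all 8 arrays, and none passed the test. Of 12 genes known to respond to low oxygen, 11 rose (median log2 change of the list 2.20), among them the carbonic anhydrase gene Car9 (19.1-fold) and Ndufa4l2, which codes for a relative of a respiratory chain subunit (36.8-fold). In the bulk RNA, fewer cells of a type and less RNA per cell cannot be told apart. Some markers of other cell types moved with oxygen. Of 8 endothelial and mural markers, Acta2, Cldn5 and Tek fell and Pdgfrb rose, with a summed linear signal of 3.03 to 13.6 times the array's 75th percentile at 21% oxygen and 2.71 to 6.64 at 5%. Of 6 meningeal fibroblast markers, Col1a2, Col3a1 and Dcn rose and Ogn fell (1.13 to 5.19 at 21%, 2.18 to 10.1 at 5%). Of 8 oligodendrocyte markers, Mbp and Cspg4 rose and Mobp fell (25.6 to 42.9 and 35.3 to 42.7). Slc1a2 rose among 6 astrocyte markers (19.2 to 32.8 and 27.3 to 39.5) and Nefl among 8 neuron markers (16.6 to 18.8 and 15.3 to 18.9), and none of 7 microglia and leukocyte markers was called (2.58 to 6.90 and 2.86 to 6.87). Gjb6 of the astrocyte list was well above background on no array. The part of these cell types in the results below was not tested.

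Fewer lincRNA probes than NM_ probes gave a signal. The feature extraction software marks a spot as well above background from its signal and the local background, and this mark is called detection here. At 21% oxygen, 55.0%, 50.6%, 60.2% and 63.9% of the lincRNA probes were detected in replicates 1 to 4, and at 5% oxygen 54.2%, 59.0%, 49.3% and 59.4%. The corresponding shares of NM_ probes were 77.4%, 77.1%, 80.8% and 82.5% at 21% oxygen and 77.0%, 80.6%, 76.5% and 81.4% at 5%. The lincRNA shares lay below every NM_ share, and the difference averaged over the 2 arrays of an experiment was -22.7 percentage points ± 1.74 (SD, n = 4 experiments; two-sided exact sign-flip permutation test, p = 0.13, the smallest that 4 experiments allow). With a looser mark, a signal that is positive and significant, the difference was -8.40 percentage points.

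Detection by name gave another picture. Of the NM_ names 76.1% had 1 probe, against 15.0% of the lincRNA names. When each name was given the detection of its brightest probe, the median share detected was 79.8% of 4610 lincRNA names (72.8% to 85.4% over the 8 arrays) and 78.9% of 20809 NM_ names (76.4% to 82.5%). The mean difference was then 0.0485 percentage points (exact p = 1), so the deficit was no longer present. With 1 probe per name taken by its place in the order of probe identifiers, without regard to its signal, the difference was -20.3 percentage points. That second choice was made after seeing the data. The brightest of several probes is picked for its signal, so the lincRNA names had more chances to count as detected. Most lincRNA names thus had at least 1 probe well above background in these cells, while a single probe of the class was detected less often than a single NM_ probe.

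**Figure D1:**
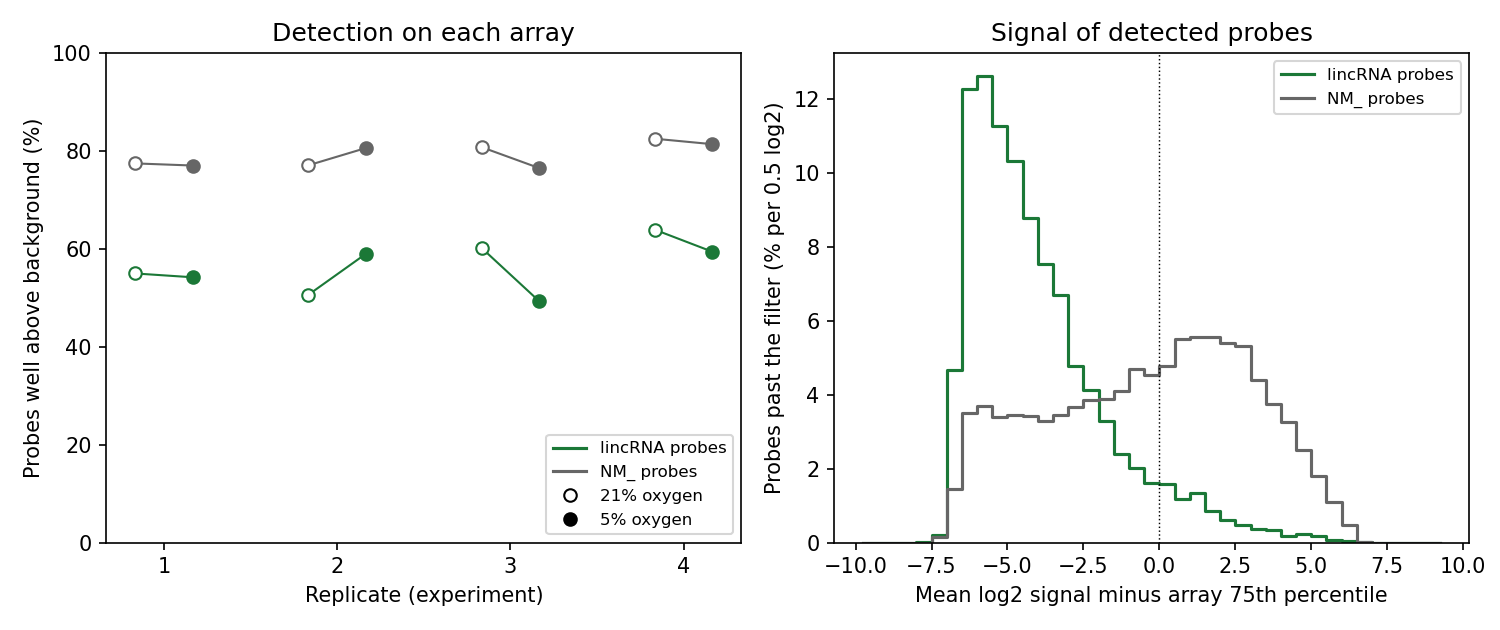
Left, share of lincRNA and NM_ probes well above background (%) on each of the 8 arrays, open circles for 21% and filled circles for 5% oxygen, joined within a replicate; the lincRNA shares run from 49.3% to 63.9% and the NM_ shares from 76.5% to 82.5%. Right, mean log2 signal minus the array's 75th percentile for the 8969 lincRNA and 20907 NM_ probes that passed the filter, as % of probes per bin; the lincRNA probes sit lower, with a median of -4.59 against -0.06.

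The share of detected lincRNA probes moved in different directions with oxygen. At 5% relative to 21% oxygen it differed by -0.78, 8.40, -10.9 and -4.51 percentage points in replicates 1 to 4 (mean -1.95 ± 8.07 SD, exact sign-flip permutation p = 0.63, n = 4 experiments). Only replicate 2 was higher at 5% oxygen, and without replicate 3 the mean was 1.04. The NM_ share moved the same way as the lincRNA share in each experiment, by -0.44, 3.54, -4.28 and -1.12 percentage points. Over all arrays, 7296 lincRNA probes (45.1%) were detected on all 8 and 4761 (29.4%) on none, against 73.5% and 14.0% of NM_ probes. The remaining 25.5% were detected on 1 to 7 arrays, a share of 12.5% for NM_ probes.

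A probe was tested for a change when 3 or more of the 4 arrays of either oxygen group detected it. This held for 8969 lincRNA probes (55.4%), in 3641 names and 2867 regions, and for 20907 NM_ probes (78.8%). The 7225 lincRNA probes that did not pass have no measured change. Values are log2 signal minus the array's 75th percentile. Signals of different probes depend on their sequence, so the value of a single probe is an array signal and not an amount of RNA. Tested lincRNA probes had a median of -4.59 (25th to 75th percentile -5.70 to -2.92), and NM_ probes one of -0.06 (-3.12 to 2.27). Above the array's 75th percentile lay 668 lincRNA probes (7.45%) and 49.5% of NM_ probes. Low signals were therefore the rule among lincRNA probes, and bright ones the exception.

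The 3 brightest lincRNA probes were not called changed. The probe of chr17:17481706-17482457 (reverse) read 7.19, 6.14, 6.31 and 5.97 at 21% oxygen and 7.52, 6.43, 6.21 and 6.32 at 5% in replicates 1 to 4 (log2 change 0.22 ± 0.15 SE, adjusted p = 0.48). That of chr7:108209996-108216032 (reverse) read 6.76, 5.71, 5.81 and 5.54, then 7.18, 6.16, 5.73 and 5.84 (0.27 ± 0.15, adjusted p = 0.38). That of chr19:5801802-5802597 (reverse) read 6.65, 5.67, 5.85 and 5.52, then 7.27, 6.22, 5.57 and 5.93 (0.33 ± 0.18, adjusted p = 0.38). In all 3 the groups overlapped, the arrays of replicate 1 were the highest of their group, and replicate 3 alone was lower at 5% oxygen. The arrays of replicate 1 also had the lowest 75th percentiles, 2990 and 1909 intensity units, to which these values are relative.

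A smaller share of lincRNA than of NM_ probes was called changed by oxygen. With limma, the replicate number as a block and Benjamini-Hochberg adjustment over all 37646 probes tested, 173 lincRNA probes were higher and 52 lower at 5% oxygen at an adjusted p under 0.05. These 225 probes were 2.51% of the 8969 tested, and 46 of them passed the filter through 1 group alone. Over all tested probes 4.79% were called (3.66% up, 1.13% down), and over NM_ probes 6.14% (4.72% up, 1.42% down). Thus the share for lincRNA probes lay below the background in both directions, at 1.93% up and 0.58% down. Of the calls, 76.9% were upward in either class. The 225 probes belonged to 148 names, 143 regions and 125 separate loci, on 20 chromosomes. In all 225 the 4 experiments had the same sign. A test within 4 pairs favours such probes, so this count follows from the selection and is no separate support.

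Calls of changed lincRNA probes, like those of NM_ probes, rested on the pairing and on single experiments. Without the block none of the 8969 was called by limma (440 had an unadjusted p under 0.05, and the smallest adjusted p was 0.0597), against 27 NM_ probes and 0.0983% of all probes. Without replicate 3 the calls were 27 up and 14 down, and 37 of the 225 kept theirs. The calls of that fit were 0.48% of lincRNA probes, 1.80% of NM_ probes and 485 of 36427 of all probes. Without replicate 1 there were 88 up and 27 down, without replicate 2 79 and 28, and without replicate 4 308 and 92. These were 1.39%, 1.24% and 4.94% of lincRNA probes, against 3.90%, 3.77% and 7.85% of NM_ probes. Of all probes, 1075 of 36067, 1055 of 36649 and 2416 of 35513 were called. In all of these 4 fits 25 of the 225 probes stayed called, 22 of them higher at 5% oxygen, and 29 were called in none. Each of these fits applied the filter anew, so a probe that failed it there was not tested and counts as not called. The 2 groups of 4 values did not overlap for 219 lincRNA probes (2.44%), against 4.66% of all probes and 5.97% of NM_ probes.

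The lower share of calls was also seen among probes of like signal and like error. Between -4 and -2 on the level scale, 2.94% of 2074 lincRNA probes and 10.2% of 2983 NM_ probes were called, with median standard errors of 0.17 and 0.16. Between -6 and -4 the shares were 2.26% and 9.44%, and above 2 they were 1.34% and 2.27%. In each of the 6 level ranges the lincRNA share was the lower one, and no test was made of this difference. Fewer of the changes were large: 118 lincRNA probes (1.32%) had an absolute log2 change above 1, against 3.86% of NM_ probes. From the 5th to the 95th percentile, lincRNA changes ran from -0.43 to 0.56 and those of NM_ probes from -0.50 to 0.79.

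**Figure D2:**
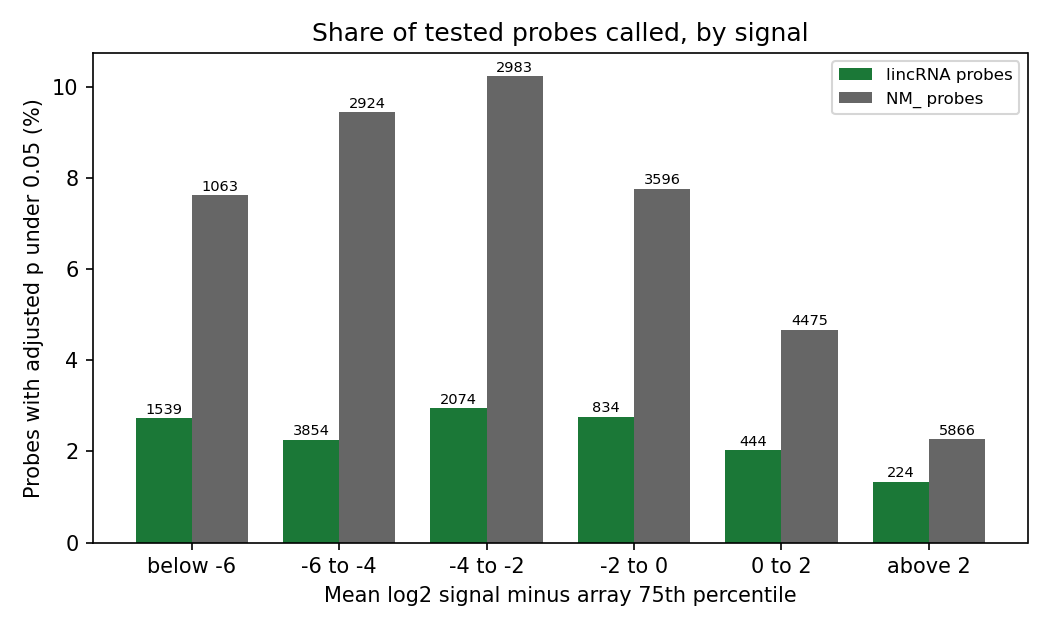
Share of tested probes with an adjusted p under 0.05 (%), by mean log2 signal minus the array's 75th percentile, for lincRNA probes (green) and NM_ probes (grey), with the number of probes above each bar. The lincRNA bars stay between 1.34% and 2.94%, below the NM_ bar in each of the 6 ranges.

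The median change of the class took different signs in different experiments. It was 0.09, 0.21, -0.19 and 0.02 on the log2 scale in replicates 1 to 4, and that of NM_ probes -0.03, 0.07, -0.11 and 0.04. The difference between the classes averaged 0.04 ± 0.11 (SD, n = 4 experiments; exact sign-flip permutation p = 0.5) and was positive in 2 of 4. Region width went with no steady order of calls: 2.06% of probes were called in regions up to 1 kb, 1.50% from 1 to 5 kb, 3.37% from 5 to 20 kb, 1.91% from 20 to 50 kb and 2.11% above.

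Several regions rose on all of their tested probes. The region chr1:73664661-73911040 (reverse strand) rose on 3 of 3 probes, by 1.58 to 1.67 on the log2 scale (adjusted p at most 0.00197). One of its probes read -5.05, -4.01, -3.91 and -5.95 at 21% oxygen and -3.57, -2.24, -2.25 and -4.20 at 5%, a 3.18-fold rise (log2 change 1.67 ± 0.14 SE, limma adjusted p = 0.00154). Levels differed between experiments by more than between the oxygen groups, so the groups overlapped, yet the rise was of like size in each experiment (median of the 3 probes 1.48, 1.66, 1.47 and 1.74). All 3 probes kept their call without any 1 replicate.

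The region chr19:5834117-5835940 (reverse) showed the largest rise among names with every probe called. Its 3 probes rose by 1.91 to 2.13 (adjusted p at most 0.00565). The first read -2.80, -1.40, -1.83 and -3.42 at 21% oxygen and 0.24, 0.26, 0.05 and -1.49 at 5% (4.37-fold, log2 change 2.13 ± 0.23 SE, adjusted p = 0.00372). The replicate 4 culture at 5% oxygen was the low one, at the level of replicate 2 at 21%, and replicate 4 was also the lowest at 21% oxygen. On the forward strand, the overlapping region chr19:5771425-5848475 rose on 3 of 10 probes, by 0.90 to 0.97.

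On chromosome X, chrX:50400250-50410825 (reverse) rose on 5 of 6 probes, by 1.16 to 1.48 (adjusted p at most 0.00606). Its probe with the smallest p read -5.20, -4.30, -5.16 and -5.48 at 21% oxygen and -3.61, -3.06, -3.45 and -4.11 at 5% (2.78-fold, 1.48 ± 0.14 SE, adjusted p = 0.00258). Here all 4 values at 5% oxygen lay above those at 21%. The 5 probes kept their calls without any 1 replicate, and the uncalled probe, detected on all 8 arrays at -6.01 on average, changed by 0.18 (adjusted p = 0.57).

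Other leading rises were dimmer or rested on fewer probes. In chr12:74135916-74142780 (reverse) 3 of 3 tested probes rose, by 1.30 to 2.33, while 2 more of its 5 probes were too dim to test. The 3 passed the filter only through the 5% oxygen group, where they were high (1, 2 and 2 of 4 arrays detected at 21%), so their count is a description. The probe with the smallest p read -7.94, -7.01, -7.15 and -6.53 at 21% oxygen, where 1 array was well above background, and -5.64, -4.58, -5.15 and -5.68 at 5%, where all 4 were (3.71-fold, 1.89 ± 0.26 SE, adjusted p = 0.00721; call lost without replicate 3). In chr8:26212577-26218527 (reverse) 3 of 5 probes rose, by 1.26 to 1.63, with the smallest rise in replicate 4 (median of the name 0.28 against 1.52 to 1.87 in the others). In chr13:98062189-98066613 (forward) 2 of 3 probes rose, by 1.28 and 1.97, which also passed only through the 5% oxygen group: the stronger was detected on 1 array at 21% oxygen, the other on 2, and both on all 4 at 5%. The call of the strongest probe was lost without replicate 3 in both regions, and on chromosome 8 also without replicate 2.

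**Figure D3:**
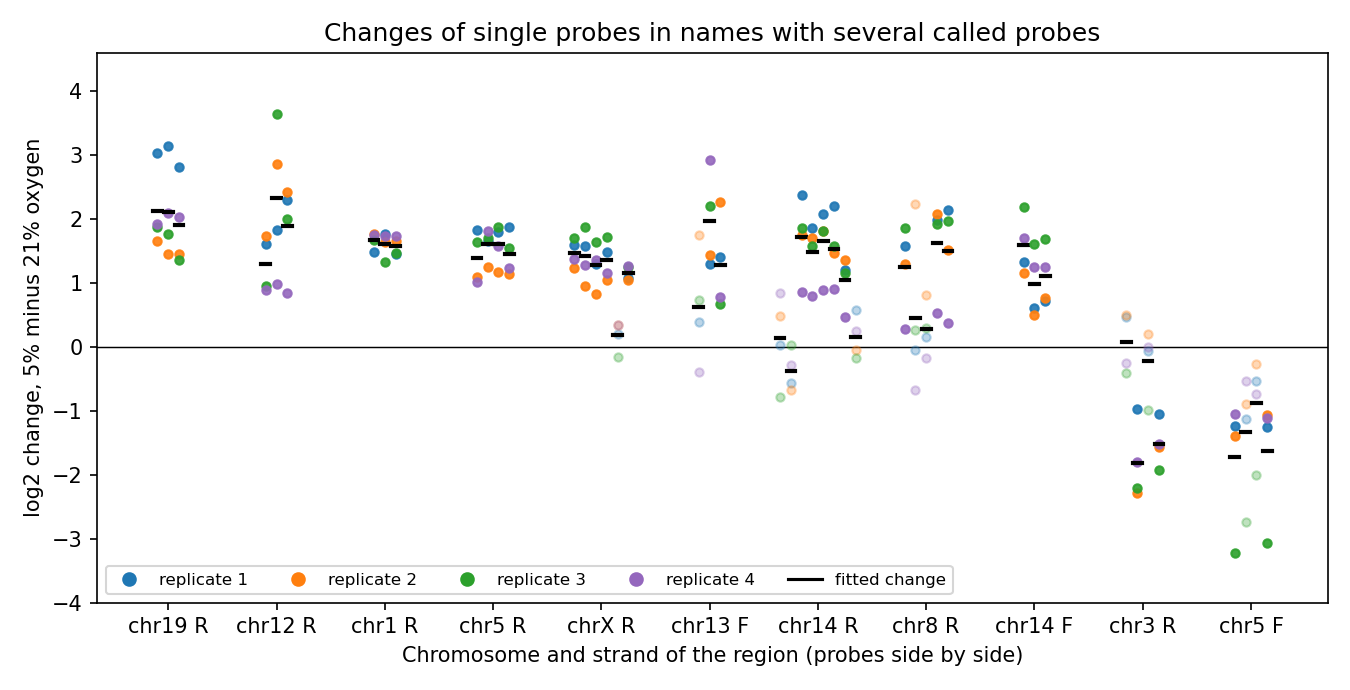
Log2 change (5% minus 21% oxygen) of each tested probe in 11 names with at least 2 called probes, coloured by replicate, with the fitted change as a black bar; pale points are probes that were not called. The chr19 reverse name has the highest median fitted change of these (2.11), and the called probes of the chr3 reverse and chr5 forward names lie below 0.

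The largest fitted change of all lincRNA probes was in chr4:106506151-106537682, a region singled out after its values were seen. On its forward strand 3 of 3 tested probes rose and on its reverse strand 3 of 4. All 3 forward probes and 2 of the 3 reverse ones were detected on at most 1 array at 21% oxygen and passed the filter only through the 5% group, so these counts are no support for a rise. The probe with the largest change read -8.77, -8.97, -9.02 and -9.45 at 21% oxygen, well above background on none, and -6.05, -4.52, -5.12 and -7.49 at 5%, well above background on 3 (adjusted p = 0.00415). Without replicate 1, 2 or 3 it failed the filter and was not tested. Since its level at 21% oxygen is only a bound, its mean at 5% was at least 2.11-fold higher. For this bound, each array at 21% took the higher of the probe's own value and the lowest signal well above background. Values at 5% were used as read, also in replicate 4, where neither culture was well above background. A reverse-strand probe read -5.63, -4.82, -5.32 and -5.84 at 21% and -3.34, -1.77, -2.64 and -6.09 at 5% oxygen (1.94 ± 0.48 SE, adjusted p = 0.06). In that probe replicates 1 to 3 were higher at 5% oxygen and replicate 4 was not. Without replicate 4 its change was 2.67 (adjusted p = 4.03e-05), and without replicate 1, 2 or 3 it was 1.57 to 1.83 and not called.

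Of the 225 called probes, 9 were well above background on no array of 1 group, 7 of them with no detected array at 21% oxygen and 2 with none at 5%. Another such region was chr14:65205076-65219432 (reverse), where 2 of 2 tested probes rose, 1 of them without detection at 21% oxygen. Probes that passed the filter through 1 group alone numbered 688, of which 46 were called, against 225 of all 8969 tested. These 688 entered the test because 1 group had more detected arrays, so their calls rest in part on the filter and are a description. On all 8 arrays 162 of the called probes were detected, 133 higher and 29 lower at 5% oxygen.

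Falls were fewer and, like the rises, mostly rested on 1 probe of a name. At least 2 probes were called in 8 of 40 names with a fall and in 36 of 109 names with a rise. The largest fall was in chr8:67552315-67561235 (reverse), whose single probe read -1.84, -2.71, -2.56 and -0.38 at 21% oxygen and -4.19, -3.59, -5.46 and -1.98 at 5%, 3.81-fold lower (log2 change -1.93 ± 0.30 SE, adjusted p = 0.0122). All 4 experiments fell, though replicate 4 at 5% oxygen stayed above replicates 2 and 3 at 21%. The overlapping region chr8:67550064-67560987 (reverse) also has 1 probe, which fell by 1.45 (adjusted p = 0.0274). That probe was detected on 2 of 4 arrays at 5% oxygen and passed the filter only through the 21% group. Both calls were lost without replicate 3, and the second also without replicate 1.

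In chr3:86827945-86886695 (reverse) 2 of 4 tested probes fell, by 1.81 and 1.52. The probe that kept its call without any 1 replicate read -3.98, -4.77, -4.35 and -2.65 at 21% oxygen and -5.03, -6.34, -6.28 and -4.17 at 5% (-1.52 ± 0.17 SE, 2.87-fold lower, adjusted p = 0.00411). Replicate 4 was the highest of both groups, and the groups overlapped through it. The other 2 tested probes of the name, detected on 5 and 7 of the 8 arrays, were not called (adjusted p of at least 0.64).

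A fall over many probes was seen on chromosome 11, in regions picked after their values were seen. In chr11:16831925-16851121 (reverse) 5 of 5 tested probes fell, by 0.86 to 1.07. The overlapping regions chr11:16838587-16850933 and chr11:16834711-16851125, on the same strand, fell on 3 of 3 and 2 of 3 probes (by 0.80 to 0.98 and 0.83 to 1.05). These 3 regions are 1 locus with 10 of the 52 probes that fell.

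The remaining leading falls had 1 called probe each. They were chr13:26791413-26810047 (forward, -1.51), chr3:36280098-36347798 (reverse, -1.31), chr16:64758224-64765674 (reverse, -1.23), chr3:108763862-108772151 (reverse, -1.20), chr4:63810346-63810958 (forward, -1.18) and chr9:27148989-27155714 (forward, -1.07). The called probes on chromosomes 13, 16, 4 and 9 passed the filter only through the 21% oxygen group, where they were high. At 5% they were detected on 1, 1, 1 and 2 of 4 arrays, so these calls are a description. Only the chromosome 4 probe kept its call without any 1 replicate. It read -4.84, -6.64, -6.64 and -4.10 at 21% oxygen and -6.48, -7.69, -7.24 and -5.51 at 5%, where 1 array was well above background (adjusted p = 0.0138). In chr3:36280098-36347798, 9 of 10 probes were tested and their median change was -0.68, with a lowest adjusted p of 0.0508 among those not called.

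Probes of 1 name mostly moved together. Among 44 names with at least 2 called probes, 43 had calls in 1 direction. In 36 names at least 2 probes rose, and in 8 at least 2 fell. The exception, chr11:120041124-120052299 (reverse), had 4 probes that rose, by 0.75 to 0.88, and 1 that fell, by 0.89, among 10. One of its rising probes read -2.65, -1.60, -1.92 and -3.11 at 21% oxygen and -2.01, -0.65, -1.06 and -2.14 at 5%, and the falling one -4.11, -3.85, -4.19 and -3.88, then -4.63, -5.45, -5.08 and -4.45. Each experiment showed both directions. In names with a call, 240 of 293 tested but uncalled probes (81.9%) had the sign of the call. For scale, 55.4% of all tested lincRNA probes had a positive change. The medians of the 2 strands of a region had the same sign in 450 of 774 regions.

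Across pairs of probes or regions, the correlation of changes dropped with distance and with a change of strand. Pearson's r was 0.60 over 2323 pairs of probes of 1 name, and 0.48 over 1019 pairs of overlapping regions on 1 strand. For opposite strands it was 0.24, both over 774 regions with tested probes on both and over 932 pairs of overlapping regions. Separate regions under 50 kb apart gave 0.23 on the same strand (919 pairs) and 0.03 on opposite strands (711 pairs), and regions over 1 Mb apart gave 0.04 (3547 pairs). These values describe pairs that share arrays and, within a name or an overlap, a target. They are no test.

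Strands of a region could differ in direction. The clearest case was chr5:35975265-35982561, which had 4 probes on each strand, all tested. On the reverse strand 4 of 4 rose, by 1.39 to 1.61 (adjusted p at most 0.00599). On the forward strand 2 of 4 fell, by 1.73 and 1.62 (adjusted p = 0.0267 and 0.0295), and the others changed by -1.32 and -0.88 (adjusted p = 0.06 and 0.12).

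The reverse-strand probe with the smallest p read -2.87, -2.95, -2.98 and -4.98 at 21% oxygen and -1.21, -1.70, -1.28 and -3.16 at 5% (3.05-fold, 1.61 ± 0.15 SE, adjusted p = 0.00227). The forward-strand probe with the smallest p read -0.01, -1.61, -1.74 and -0.15 at 21% oxygen and -1.25, -3.01, -4.96 and -1.19 at 5% (3.31-fold lower, -1.73 ± 0.33 SE). All 4 experiments gave a rise on the reverse and a lower value on the forward strand. Their sizes were uneven on the forward strand, where the median was -2.90 in replicate 3 and -1.18, -0.98 and -0.89 in replicates 1, 2 and 4. Both forward calls were lost without replicate 2, and 3 of the 4 reverse calls held without any 1 replicate.

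**Figure D4:**
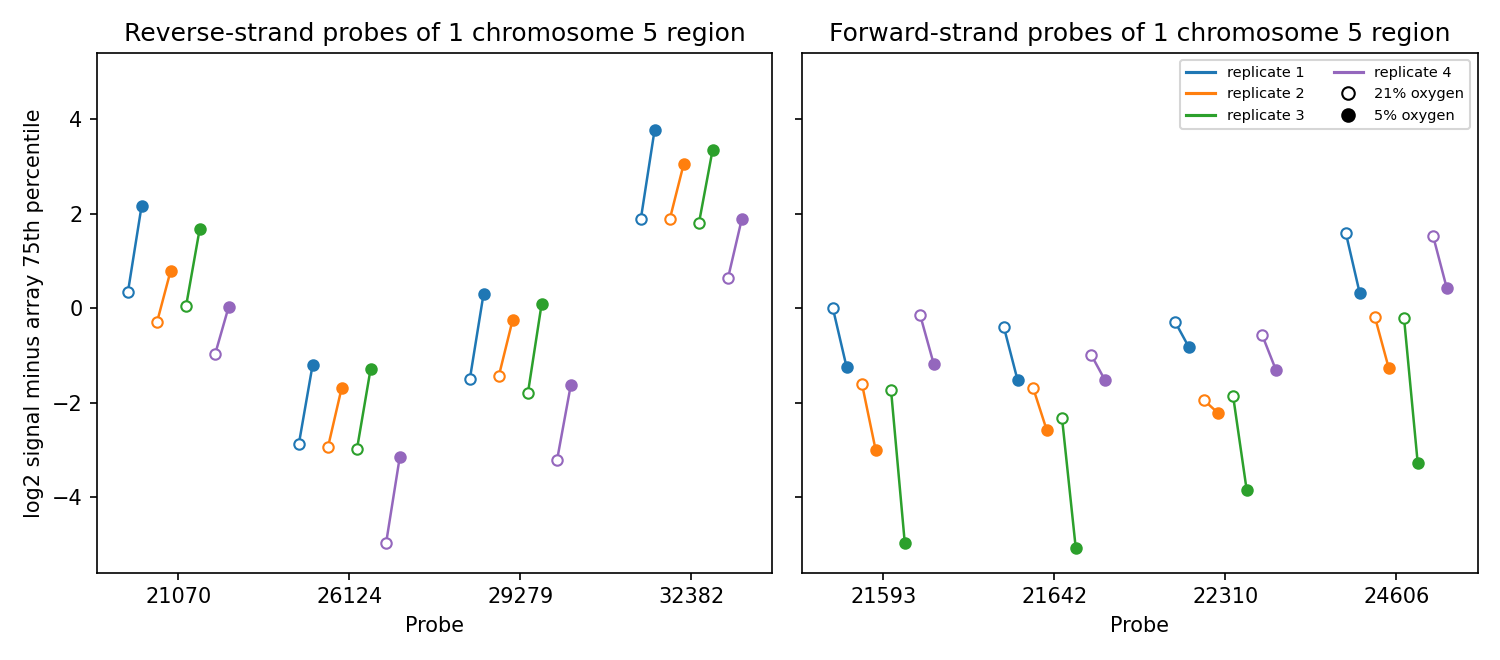
Log2 signal minus the array's 75th percentile of the 4 reverse-strand and 4 forward-strand probes of a chromosome 5 region, open circles for 21% and filled circles for 5% oxygen, joined within a replicate; each column is a probe, labelled by the last digits of its identifier. Lines rise in all 4 replicates on the reverse strand (fitted changes 1.39 to 1.61) and fall in all 4 on the forward strand (-0.88 to -1.73).

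Both strands were called in 4 other regions of the 774. In chrX:50400250-50410825 the reverse strand rose on 5 probes and 1 forward probe fell, by 0.71, while the median over all tested probes was 1.32 on the reverse and 0.27 on the forward strand. In the other 3 the called probes of both strands were higher at 5% oxygen. For chr4:106506151-106537682 the medians over all tested probes were 1.68 forward and 2.22 reverse. All tested forward probes and 2 of the tested reverse ones passed the filter only through the 5% group, so these medians are a description. In chr14:105987405-106063477, 1 forward probe was called (0.85) and 3 of 10 tested reverse probes (median of the 3 1.54), 2 of them detected on no array at 21% oxygen, and the medians over all tested probes were 0.36 and 0.12. In chr12:33606225-33638225, 1 probe was called on each strand (0.96 and 0.81), both tested only through their detection at 5% oxygen. The chromosome 14 region encloses chr14:105988692-105994145 (forward), where 3 of 3 probes rose, by 0.99 to 1.60. Its strongest probe read 0.34, 0.58, -0.36 and -0.73 at 21% oxygen and 1.67, 1.74, 1.83 and 0.98 at 5%, with no overlap (3.03-fold, 1.60 ± 0.19 SE, adjusted p = 0.00481).

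In 61 regions 1 of 2 tested strands was called. In chr14:67585234-67596823 the reverse strand rose on 5 of 8 tested probes, by 1.05 to 1.71. One of these read -3.48, -3.41, -3.68 and -3.73 at 21% oxygen and -1.39, -1.59, -1.86 and -2.84 at 5%, without overlap (3.14-fold, 1.65 ± 0.21 SE, adjusted p = 0.00549; call lost without replicate 3). On the forward strand 3 of 4 tested probes were bright, 1 of them at 2.68, 2.89, 2.87 and 2.94, then 2.31, 2.69, 2.88 and 2.75, and the 4 changed by -0.19 to 0.13 (adjusted p of at least 0.53). In chr12:74135916-74142780 the 6 tested forward probes changed by -0.35 to 0.41 (adjusted p of at least 0.19). A probe of the forward region chr12:74140325-74142695, which lies within it, was called, with a rise of 1.50 (adjusted p = 0.045). That probe was detected on 1 array at 21% and 3 at 5% oxygen, so it passed the filter only through the 5% group. In chr13:95613081-95640256 the forward probe rose by 1.24 (adjusted p = 0.0238) and the reverse probe, detected on 4 of 8 arrays, changed by -0.37 (adjusted p = 0.22).

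**Figure D5:**
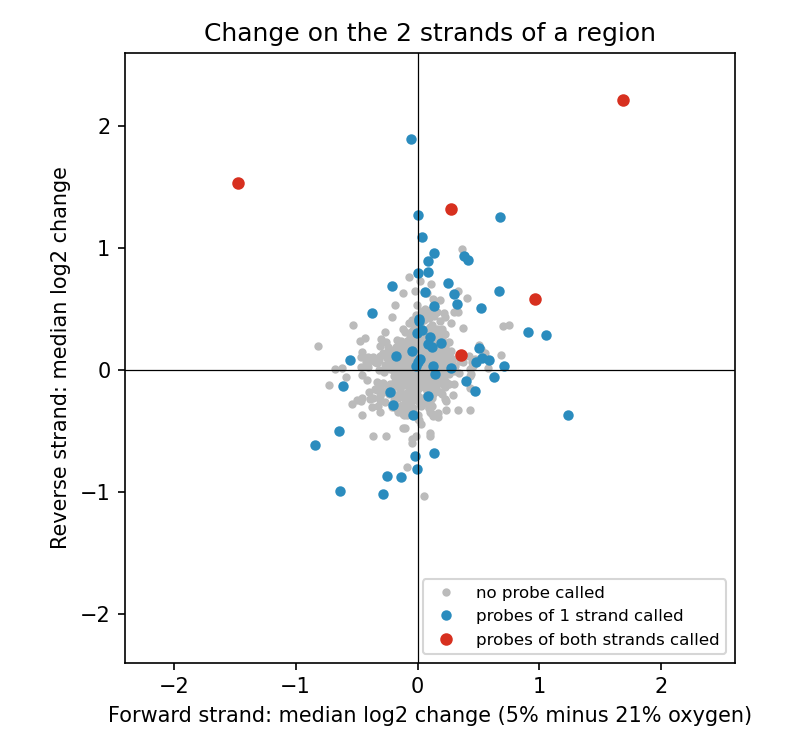
Median log2 change (5% minus 21% oxygen) of the tested reverse-strand probes against that of the forward-strand probes, 1 point for each of 774 regions, coloured by whether probes of 0, 1 or 2 strands were called. The correlation is 0.24; of the 5 regions called on both strands, the chromosome 5 region lies alone at the upper left, at -1.47 forward and 1.53 reverse.

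Neighbouring but separate regions under 50 kb apart, with both called in the same direction, came to 3 pairs, all upward and all with both regions on the forward strand. In chrX:20376867-20377837 and chrX:20378510-20379091 (forward, 672 bp apart) 1 probe each rose, by 0.88 and 1.04. In chr12:110842154-110883594 and chr12:110894095-110899517 (forward, 10.5 kb apart) the rises were 0.65 and 1.41. The second chromosome 12 region read -5.72, -5.65, -5.41 and -4.16 at 21% oxygen and -4.16, -3.69, -4.17 and -3.27 at 5% (adjusted p = 0.00722). Every experiment rose in these 4 probes, but the first on chromosome 12 lost its call whichever of the 4 replicates was left out. The first on chromosome X lost it without replicate 3, and without replicate 1, 2 or 4 it failed the filter and was not tested. It was detected on 1 array at 21% and 3 at 5% oxygen, so it passed the filter only through the 5% group. The second on chromosome X lost its call without replicate 1, 2 or 3, and the second on chromosome 12 without replicate 3. The third pair was chr5:54053328-54053870 and chr5:54053882-54054174 (forward, 11 bp apart).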

How the data were processed

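RNA of 8 cultures was hybridised to 1-colour Agilent mouse arrays, all on 1 slide, so no slide batch could be examined. Per the submitters' processing notes, the deposited intensity values are output of Agilent Feature Extraction (version 10.7.3.1); background subtraction and detrending were on and arrays were not scaled to each other, per the file headers. The authors' deposited log2 table was found to hold log2 processed signals from which the 75th percentile of the array and the median of the probe had been taken off, to within 0.01 for 99.91% to 99.94% of probes. Its column medians ran from -0.12 to 0.25. It served as an alternative.

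Here log2 processed signal minus the 75th percentile of the array's non-control spots was used. Non-uniform and population outlier spots were left out and spots of 1 probe averaged. Every probe detected on 3 of 4 arrays of a group entered limma 3.58.1 (R 4.3.3; lmFit, eBayes), with Benjamini-Hochberg adjustment over 37646 probes, a threshold of 0.05 and the replicate number as a block. Standard errors and adjusted p-values of single probes are from this fit, each over 4 arrays per group. The numbers pair the samples: different donors were used for each experiment, per the series' design text, cultures ran in parallel, per the labels' protocols, and deviations from the group means correlated at 0.74, 0.51, 0.37 and 0.62 within numbers (at most 0.29 across them). Class shares and medians were compared with exact sign-flip tests over 4 experiments. The procedure was tested on simulated data.

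The probes, the lists and the tests were chosen with earlier results of these data known. Named regions were, per direction, up to 10 with the largest change among called probes detected on at least 1 array of each group; up to 5 names with several called probes; up to 4 regions with the largest strand difference; the 3 brightest probes; and up to 2 neighbouring pairs per direction. None on chromosome 18 is named. Marker genes were named through RefSeq accessions (assembly GRCm38.p6), which gave 26077 of 26536 NM_ probes a symbol. The array's build is mm9, so region coordinates were not set against that table. Probe sequences are not shown. The alternatives covered pairing, background correction (normexp, offset 50), scaling, the filter, probe summary, spot flags, moderation, the authors' table and leaving out each experiment.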

Additional observations from a re-analysis of the deposited data

Results flagged for a closer look

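In 12 of 191 groups of 4 values examined, 1 array lay far from the other 3 (Dixon's criterion for the gap over the range). Chance flags about 1 group in 20, and groups of probes from 1 region share their arrays. All 12 arrays belonged to replicates 1 (5) and 4 (7). Values are log2 signal minus the array's 75th percentile.

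In replicate 4 at 5% oxygen, 2 probes of chr19:5834117-5835940 (reverse) read -1.49 and -1.48, against 0.05 to 0.26 and 0.01 to 0.19 in the other 3 cultures, and the probe of chr9:27148989-27155714 (forward) read -4.60, against -6.46 to -6.29. In replicate 4 at 21% oxygen, 2 probes of chr5:35975265-35982561 (reverse) read -4.98, against -2.98 to -2.87, and 0.64, against 1.81 to 1.89. On the same array a probe of chr3:86827945-86886695 (reverse) read -1.52, against -3.56 to -3.35, and one of chr4:106506151-106537682 (reverse) -6.92, against -6.36 to -6.32.

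In replicate 1 at 5% oxygen, the brightest lincRNA probe, of chr17:17481706-17482457 (reverse), read 7.52, against 6.21 to 6.43, and 2 forward probes of chr12:74135916-74142780 read -5.34, against -7.25 to -6.93, and -4.47, against -5.09 to -5.03. In replicate 1 at 21% oxygen, probes of chr14:67585234-67596823 read 3.86 (forward), against 3.38 to 3.45, and -4.09 (reverse), against -5.07 to -5.01.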

How the results depend on the processing

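The replicate block decided the calls: with no replicate block 0 lincRNA probes were called up, 0 down and 27 NM_ probes in all, against 173, 52 and 1283 with it. With no filter on dim probes the counts were 29, 3 and 308, and with trended and robust moderation 268, 80 and 2103. With the brightest probe per name standing for its name, 65 lincRNA names were up and 16 down, of 3641 tested. Leaving out 1 experiment at a time gave 27 to 308 up, 14 to 92 down and 367 to 1585 NM_ calls, lowest without replicate 3 and highest without replicate 4. Under normexp, quantile and median scaling, the percentile over NM_ probes, detection on all arrays, the authors' table and kept flagged spots, each count stayed within 1.5 times. In each fit with the block the called share was lower for lincRNA than for NM_ probes. The detection difference was -8.40 points with the looser mark, 0.0485 with the brightest probe per name, where the sign turned, and -20.3 with the first probe by identifier, an alternative chosen after seeing the data. The difference between the classes in median change kept its sign under all alternatives run (0.01 to 0.08). Of the 86 tested probes named, those called changed sign under no alternative run; 54 lost their call with no replicate block and 32 with no filter. The causes were not tested. A probe near background has a compressed change, and 4 experiments limit the precision.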

Other observations

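Tested lincRNA probes on chromosome X had a median log2 change of 0.13 (327 probes), above that of each of the other 19 chromosomes, which ran from -0.005 to 0.06. By name the median was 0.10 over 137 names. It was 0.17, 0.34, 0.03 and 0.10 in replicates 1 to 4, and the difference from the other chromosomes was 0.08, 0.13, 0.22 and 0.09 (two-sided exact sign-flip permutation p = 0.13, the smallest that 4 experiments allow). The chromosome was picked after its value was seen. Of these probes 11 were called up and 1 down, from 6 names. That share, 3.67%, compares with 2.51% of all tested lincRNA probes, 4.63% on chromosome 13 and 4.79% of all tested probes. Of the upward calls, 5 were in chrX:50400250-50410825 (reverse). The overlapping names chrX:90997595-91009570 and chrX:91000651-91005855 (reverse) held 2 each.

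Reverse-strand probes were called more often than forward-strand ones: 146 of the 225 calls against 79, or 3.18% of tested reverse probes and 1.81% of forward ones. By name the shares were 4.83% of 1803 and 3.32% of 1835 tested. The difference was not tested. The median level was -4.50 on the reverse and -4.66 on the forward strand.

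Of the 13 probes in regions without a strand suffix, 9 were tested and none was called (lowest adjusted p 0.41). All 5 probes of chr17:12941161-12944859 and all 3 of chr3:34856791-34869544 were detected on all 8 arrays, with changes of -0.39 to -0.04 and -0.30 to -0.22. Of the 5 probes of chr6:52032838-52033444, 1 was tested, with a change of 0.37.

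The share of called probes ran from 0.23% on chromosome 7 (1 of 433) to 4.63% on chromosome 13 (22 of 475 probes, in 15 names). On chromosome 9, 7 of 9 calls and on chromosome 11, 11 of 17 were downward, while all 14 on chromosome 12 were upward. The chromosome 11 falls were 5, 3 and 2 probes of the 3 overlapping regions of 1 locus, and 1 probe of chr11:120041124-120052299 (reverse). Calls of 1 region are not independent, and no test was made of these shares.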
